A study of Mus musculus with 3 samples.

Results

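The genes described here are the AP-1 transcription factor genes Fos, Fosb, Fosl1, Fosl2, Jun, Junb and Jund, together with the early response genes Egr1, Egr3 and Ier3. They were picked out by gene symbol in the array's annotation, from a list drawn up with earlier results of these data known. Each of the 10 had 1 probe set, out of 19938 genes measured by single-gene probe sets. The cells were CT26, a mouse colon carcinoma line, stably transfected with a PIG vector that carries GFP and puromycin resistance. The group miR-Ctrl (Ctrl) held the control microRNA vector, and the groups miR-17~92Med (Med) and miR-17~92Hi (Hi) held the vector of the miR-17~92 cluster at a medium and a high level. All cells had been drug-selected, sorted for GFP and cloned, and were grown in medium with 10% fetal bovine serum. The design names 3 subclones per group, but the table has 1 column of values for each, so clone and construct cannot be told apart and no value below has a measured error or a test. The array reads a bulk extract, in which fewer cells expressing a gene and less RNA per cell cannot be told apart.

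AP-1 is a dimer of basic leucine zipper proteins. Jun proteins pair with each other or with Fos proteins, while Fos proteins need a Jun partner to bind DNA. Growth factors and stress act through MAP kinases to switch on Fos, Jun and the Egr genes within minutes without new protein synthesis, hence the name immediate-early genes, and serum added to starved cells is the classic trigger. Fosl1 (Fra-1) is also kept high in many carcinoma cells with an active Ras pathway.

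The cluster that the Med and Hi cells carried encodes 6 microRNAs whose main mature strands are shown here because they define the groups. The sequences are those of RefSeq on GRCm38.p6, and capitals mark the seed, bases 2 to 8, through which a microRNA recognises its targets.
mmu-miR-17-5p: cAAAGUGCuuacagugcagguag
mmu-miR-20a-5p: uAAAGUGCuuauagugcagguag
mmu-miR-18a-5p: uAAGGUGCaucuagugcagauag
mmu-miR-19a-3p: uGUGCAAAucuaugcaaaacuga
mmu-miR-19b-3p: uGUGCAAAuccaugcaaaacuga
mmu-miR-92a-3p: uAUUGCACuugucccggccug
They hold 4 distinct seeds. miR-17 and miR-20a share AAAGUGC, and miR-19a and miR-19b share GUGCAAA. Whether a member's transcript holds a match to these seeds was not analysed here.

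Promoters were available for 7 of the 10 genes in a RefSeq table that spans 250 bases before to 50 after an annotated start. Shown are Jun and Ier3, the members highest above Ctrl, and Fos and Fosl2, members below it. Jun is from chr4:95052173-95052472 (minus strand), Ier3 from chr17:35821463-35821762 (plus strand), Fos from chr12:85473640-85473939 (plus strand) and Fosl2 from chr5:32136222-32136521 (plus strand), all on GRCm38.p6. Capitals mark motif matches.
Jun: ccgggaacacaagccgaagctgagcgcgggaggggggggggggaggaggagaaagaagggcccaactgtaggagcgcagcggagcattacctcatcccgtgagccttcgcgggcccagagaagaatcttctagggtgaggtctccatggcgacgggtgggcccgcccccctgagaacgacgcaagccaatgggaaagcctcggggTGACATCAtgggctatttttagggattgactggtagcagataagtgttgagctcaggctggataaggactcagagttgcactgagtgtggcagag
Ier3: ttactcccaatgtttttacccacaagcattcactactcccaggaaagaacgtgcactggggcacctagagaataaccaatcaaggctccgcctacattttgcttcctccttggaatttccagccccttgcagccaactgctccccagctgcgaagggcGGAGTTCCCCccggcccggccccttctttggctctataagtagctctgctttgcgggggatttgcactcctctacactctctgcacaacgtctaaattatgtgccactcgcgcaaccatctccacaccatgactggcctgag
Fos: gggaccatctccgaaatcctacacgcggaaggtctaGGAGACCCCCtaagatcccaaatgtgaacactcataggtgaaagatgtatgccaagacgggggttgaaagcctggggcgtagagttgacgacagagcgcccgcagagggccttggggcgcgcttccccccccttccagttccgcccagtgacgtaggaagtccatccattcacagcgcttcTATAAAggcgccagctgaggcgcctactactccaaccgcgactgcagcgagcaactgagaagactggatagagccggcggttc
Fosl2: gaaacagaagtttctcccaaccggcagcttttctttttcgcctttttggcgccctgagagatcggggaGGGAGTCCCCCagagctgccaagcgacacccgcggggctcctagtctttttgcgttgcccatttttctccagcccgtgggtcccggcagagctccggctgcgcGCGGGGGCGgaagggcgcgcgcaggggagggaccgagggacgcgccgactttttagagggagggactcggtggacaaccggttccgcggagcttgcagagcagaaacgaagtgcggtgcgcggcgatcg
The motifs searched on both strands were the AP-1 site TGANTCA, the cyclic AMP element TGACGTCA, the variant TGACATCA, the EGR site GCGNGGGCG, TATAAA, and the CArG box and NF-kB site by their usual consensus. Jun carries TGACATCA at positions -45 to -38 from the start, a motif held by 3.62% of the 32841 promoters of this length. The capitals in Ier3 mark an NF-kB match at -92 to -83. Fos holds an NF-kB match at -214 to -205 and TATAAA at -33 to -28. In Fosl2 the capitals at -182 to -172 are NF-kB matches that overlap one another, and those at -79 to -71 an EGR site.

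Over the 7 promoters, the NF-kB motif was found in 4 (8.46% of all promoters), the EGR site in 2 (5.55%), TATAAA in 2 (13.6%) and TGACATCA in 1. TGANTCA (7.81% of all promoters), TGACGTCA (1.79%) and the CArG box (1.63%) were found in 0 of the 7 windows. Sequence outside these windows was not searched, and Fosl1, Egr1 and Egr3 had no promoter in the table used. The search therefore cannot show that the members lack these motifs. The NF-kB match occurs both in Ier3, which was higher than Ctrl in Med and Hi, and in Fos and Fosl2, which were lower.

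**Figure D1:**
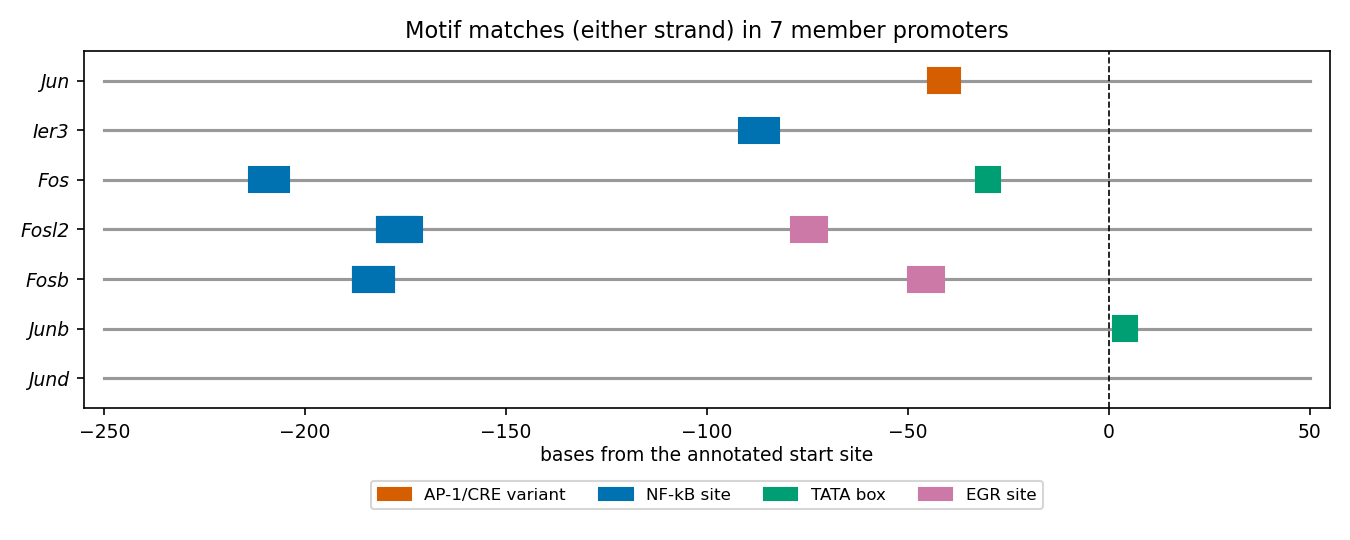
Motif matches on either strand in the 7 member promoters with a sequence, drawn to scale in bases from the annotated start site (dashed line, x axis), 1 promoter per row. Within the bases drawn, Jun alone of the 7 holds the variant TGACATCA, 4 hold an NF-kB match, and Jund holds no match to any motif searched.

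The columns differ as wholes, which bears on every comparison with Ctrl. Across 35556 probe sets the correlation r was 0.787 between Med and Ctrl, 0.795 between Hi and Ctrl, and 0.992 between Hi and Med (probe sets are not independent replicates). The mitochondrial mRNAs COX2 and ND3 lay between 12.2 and 13.4 in Med and Hi and between 5.07 and 6.00 in Ctrl, and their part in the differences of the members was not tested. Of 9 colon epithelial markers, 4 had a mean reaching the median of all genes (7.13), namely Krt18 (12.28 in Hi, 7.97 in Ctrl), Krt19 (7.87 in Hi, 7.50 in Ctrl), Krt8 (7.32 in Hi, 8.92 in Ctrl) and Cdx1 (7.45 in Hi, 8.95 in Ctrl). Epcam, a defining marker of epithelium, did not reach it, at 5.14 in Hi and Med against 6.15 in Ctrl. Vim, the 1 marker listed for a mesenchymal state, did reach it, at 13.63 in Hi and 13.89 in Med against 11.94 in Ctrl. Endothelial markers reached it in 0 of 3 and leukocyte markers in 1 of 4, the lysosomal gene Cd68. Fibroblast or muscle markers reached it in 1 of 5, Acta2, which had 6.42 in Hi and Med against 9.67 in Ctrl and so ran the same way as Fos and the Egr genes. Its part in their differences was not tested. Odorant and pheromone receptor genes, a class not expected in intestinal tumour cells, served as a gauge of background. Their median was 4.51 in Hi and Med against 4.92 in Ctrl, and their 99th percentile 6.91 in Hi and Med against 7.72 in Ctrl. Levels are deposited log2 values on the array's own scale and are compared between columns within a gene, not between genes.

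Between the miR-17~92 columns and Ctrl the members split. Jun, Ier3 and Fosl1 were higher in both, Fos, Fosl2, Egr1 and Egr3 lower, Fosb slightly lower, and Junb and Jund identical. The members were chosen with earlier results of these data known, so their counts beside the shares of all genes are no unbiased contrast. In Med against Ctrl, 3 of 10 members were at least 2-fold higher, as were 18.3% of all genes, and 4 were at least 2-fold lower, as were 16.3% of all genes. In Hi against Ctrl, 2 of 10 were higher (17.5% of all genes) and the same 4 lower (15.4%). Among the 9969 genes whose mean reached the median of all genes, the shares higher and lower were 34.9% and 8.7% in Med and 33.5% and 8.4% in Hi, and 9 of the 10 members were among these genes. That mean takes in Med and Hi, so a gene low in Ctrl can pass through the columns where it is high. The filter can thus itself tilt these shares toward higher genes. The median difference of the 10 members was -0.27 in both comparisons, beside medians over all genes of -0.20 in Med and -0.19 in Hi. Both comparisons use the same Ctrl column. Hi against Med had 0 members 2-fold higher (0.406% of all genes) and 0 lower (0.512%).

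**Figure D2:**
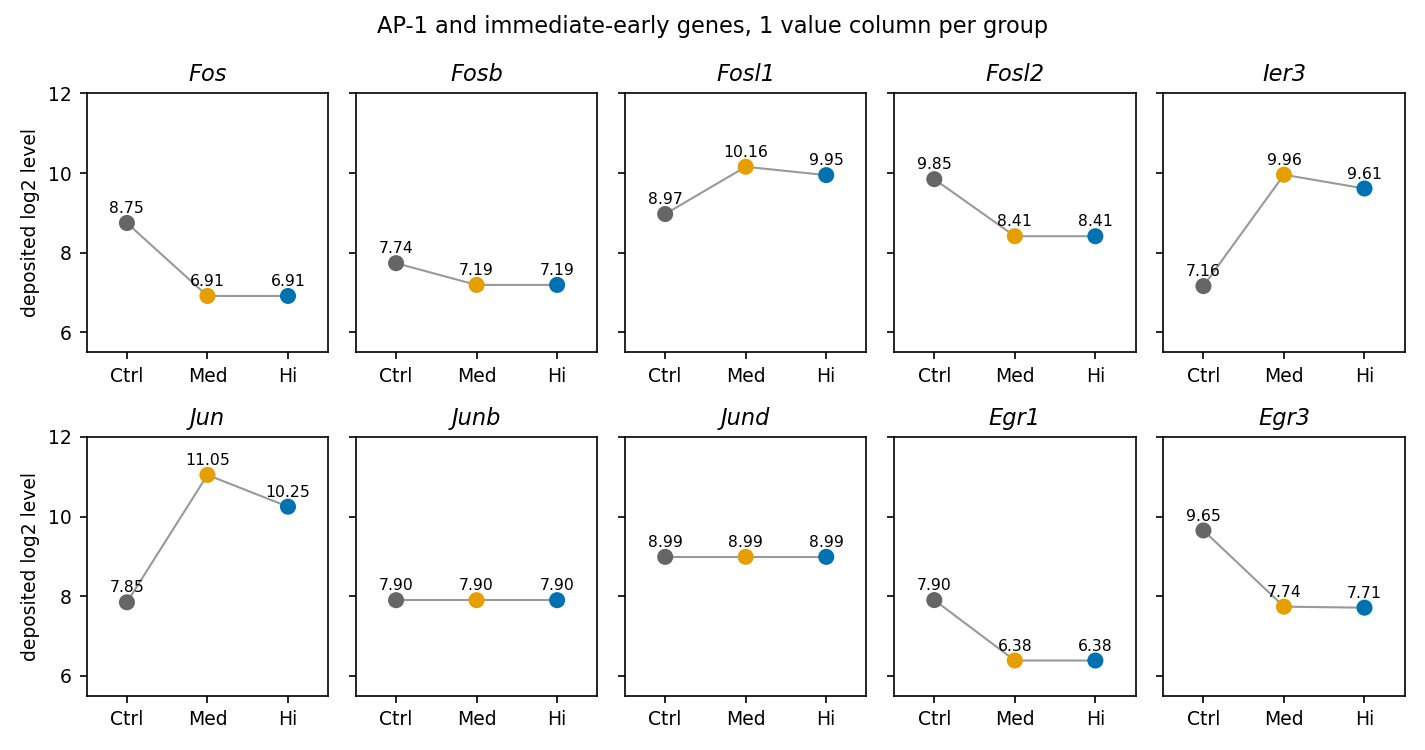
Deposited log2 levels (y axis) of the 10 genes in Ctrl, Med and Hi (x axis), each point being the 1 value of that group, with no replicates and so no error bars. Jun, Fosl1 and Ier3 have their highest point in Med, Fos, Fosb, Fosl2 and Egr1 are level between Med and Hi, and Junb and Jund are level throughout.

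Jun, the member of its family that most strongly activates transcription, had log2 levels of 7.85 in Ctrl, 11.05 in Med and 10.25 in Hi. It was highest in Med and lowest in Ctrl. The difference was 3.20 in Med (9.19-fold on the linear scale) and 2.40 in Hi (5.29-fold). The Ctrl level lay close to the 99th percentile of the receptor genes in that column (7.72), so the size and rank of these differences are uncertain. Of all genes, 463 (2.32%) had a higher difference in Med and 1009 (5.06%) in Hi. The 2 other genes of the family, Junb and Jund, differed from Jun in this. Junb, a weaker activator that can oppose Jun, had 7.90 in each of Ctrl, Med and Hi, and Jund, which is usually made steadily and slows growth in fibroblasts, at 8.99 in all 3.

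Junb and Jund had the same value in every column to every deposited digit. Such identity across all columns occurred in 8.7% of all genes and in 13.9% of the 1194 odorant and pheromone receptor genes. From these values, equal RNA cannot be told apart from a probe set that gave no separate reading in each column. The gap between the Jun and Jund differences was 3.20 in Med and 2.40 in Hi. It stayed between 2.84 and 3.41 in Med and between 2.05 and 2.66 in Hi over the scalings tried. This range cannot show whether Jund RNA was equal, as every scaling starts from the same identical Jund values.

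In the Fos family no member behaved like Jun in size, and Fosl1 stood on the other side of Ctrl from the other 3. Fosl1, whose protein lacks a strong activation domain and forms stable dimers with Jun, had a level of 8.97 in Ctrl, of 10.16 in Med and of 9.95 in Hi. It was again highest in Med and lowest in Ctrl. Its differences from Ctrl were 1.19 in Med (2.28-fold) and 0.98 in Hi (1.97-fold), on either side of the 2-fold line. Of all genes, 16.1% had a higher difference in Med and 17.8% in Hi. With quantile scaling the Fosl1 differences were 0.22 in Med and 0.08 in Hi, and with loess 0.14 and -0.05, so its direction in Hi depends on the scaling.

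Fos, the classic immediate-early gene and partner of Jun, was at 8.75 in Ctrl and 6.91 in both Med and Hi. Ctrl was thus high, and the miR-17~92 columns coincided. The difference of -1.83 in each is a level 3.56-fold higher in Ctrl, though 6.91 is also the 99th percentile of the receptor genes in Med and Hi, which leaves the size of the difference uncertain. Only 142 genes (0.712%) lay lower in Med and 127 (0.637%) in Hi. Fosl2 (Fra-2), which like Fosl1 lacks a strong activation domain, was at 9.85 in Ctrl and 8.41 in both Med and Hi, a difference of -1.43. Of all genes 4.07% had a lower difference in Med and 3.33% in Hi. Fosb, which is made in long and short forms by splicing, had 7.74 in Ctrl and 7.19 in each of Med and Hi. The Fosb level in Ctrl lay close to the 99th percentile of the receptor genes there (7.72), so the size of its difference is uncertain. That difference, -0.55, is under 2-fold, and 37.2% of genes lay lower in Med. It passed 2-fold under 1 added scaling, centring on the genes past the expression filter (-1.14 in Med, -1.09 in Hi).

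Within the same columns, Jun was thus higher and Fos lower than in Ctrl. The gap between their differences was 5.03 in Med and 4.24 in Hi, and over the scalings tried it lay between 3.73 and 5.03 in Med and between 2.97 and 4.24 in Hi. A constant added to a column leaves this gap as it is. The columns also differ in spread, with interquartile ranges of 2.42 in Ctrl, 3.12 in Med and 3.08 in Hi, which a constant does not change. Jun in Ctrl (7.85) and Fos in Med and Hi (6.91) lie close to the 99th percentile of the receptor genes there (7.72 in Ctrl, 6.91 in Med and Hi). The size of the gap is therefore uncertain. Between the Fra genes, Fosl1 and Fosl2, the gap was 2.62 in Med (2.22 to 2.62 over scalings) and 2.41 in Hi (2.02 to 2.43).

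**Figure D3:**
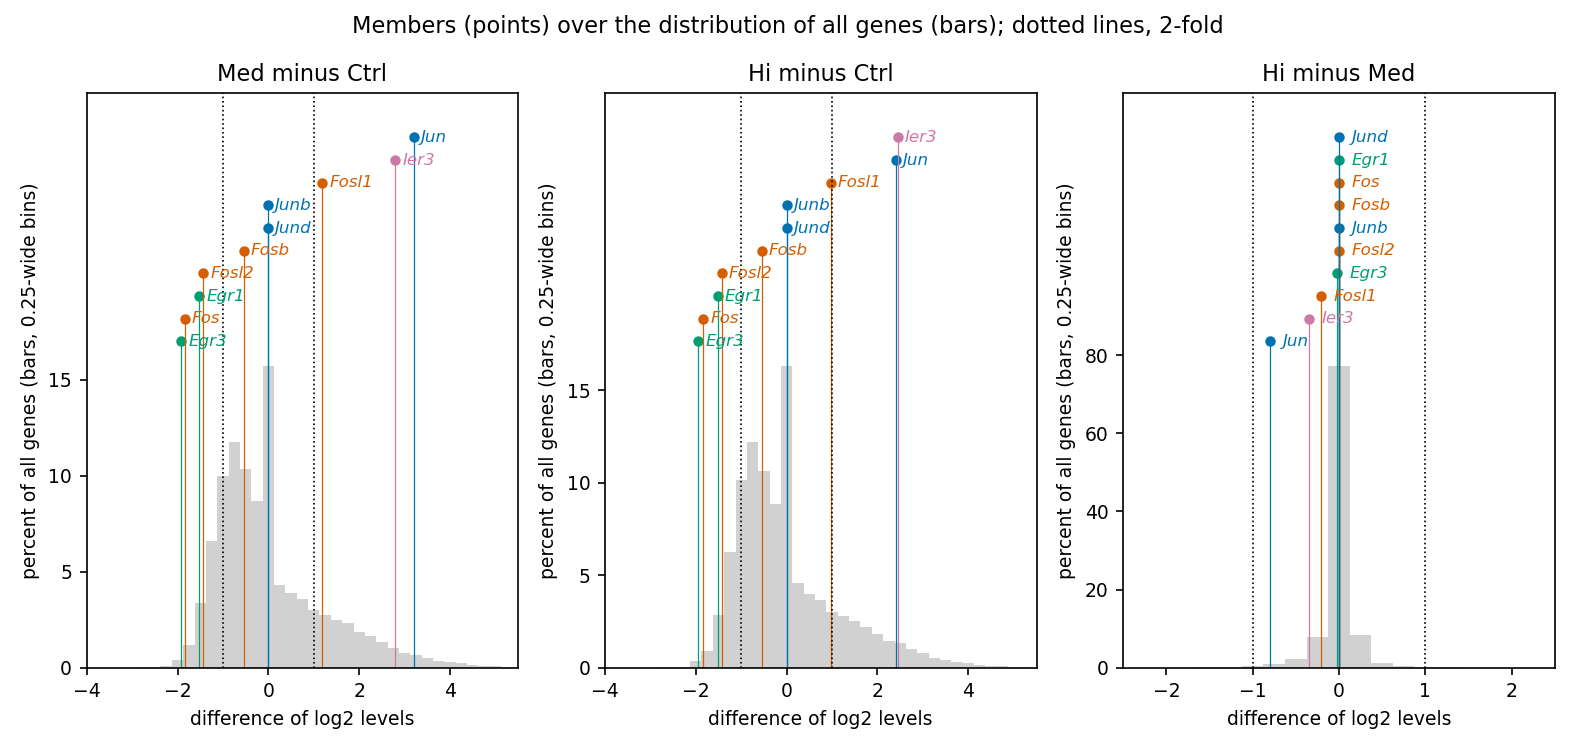
Differences of log2 levels (x axis) for the 10 members (points, coloured by family, placed at arbitrary height) over the distribution of all 19938 genes (grey bars, percent of genes per bin on the y axis), with dotted lines at 2-fold. Jun and Ier3 lie in the upper tail against Ctrl and Egr3 and Fos in the lower tail, while in Hi minus Med only Jun, Ier3, Fosl1 and Egr3 leave the value 0.

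Both Egr genes, zinc finger factors induced alongside Fos through serum response elements, were lower in the miR-17~92 columns. Egr3 had levels of 9.65 in Ctrl, of 7.74 in Med and of 7.71 in Hi. Ctrl stood apart, with Med and Hi 0.03 from each other. The differences of -1.92 in Med and -1.94 in Hi (a level 3.77-fold and 3.84-fold higher in Ctrl) were the lowest among the members, with 101 and 87 genes lower still. Egr1 was at 7.90 in Ctrl and 6.38 in both Med and Hi, a difference of -1.52. Its level in Med and Hi lay below the 99th percentile of the receptor genes there, so the size of this difference is uncertain. Its mean over the columns, 6.89, was the only one among the members below the median of all genes. With loess scaling its differences came to -0.96 in Med and -0.98 in Hi, just under 2-fold.

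Ier3 (IEX-1), a small NF-kB- and ERK-responsive protein that modulates cell survival, is no transcription factor. Its log2 level was 7.16 in Ctrl, 9.96 in Med and 9.61 in Hi. As for Jun and Fosl1, Med was highest and Ctrl lowest. The differences of 2.80 in Med (6.95-fold) and 2.45 in Hi (5.47-fold) were exceeded by 3.62% and 4.78% of genes. The Ctrl level lay below the 99th percentile of the receptor genes in that column, so these folds and ranks are taken against a value not shown to be above background. The gap between the Ier3 and Egr3 differences was 4.71 in Med and 4.39 in Hi, and was at least 4.37 in Med and 4.06 in Hi under the scalings tried.

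**Figure D4:**
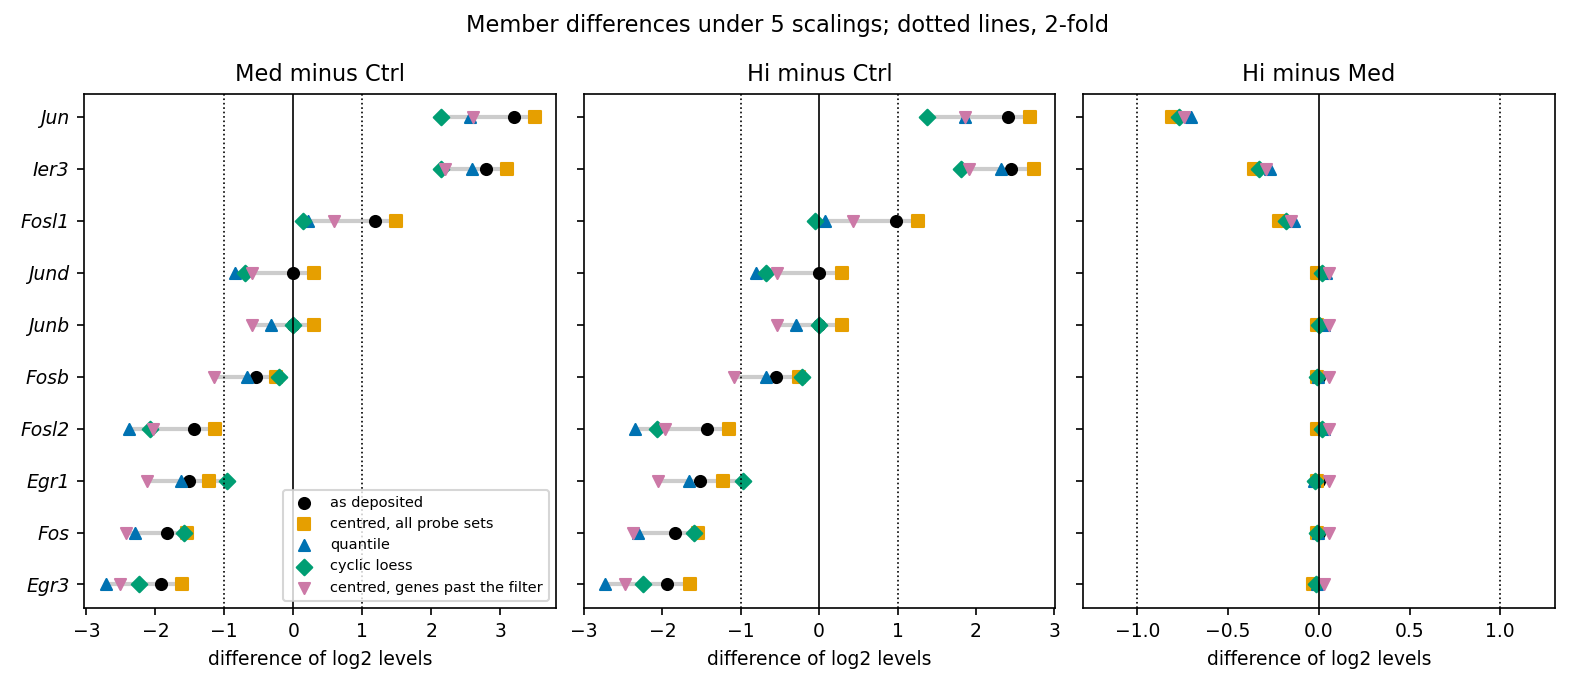
Difference of log2 levels (x axis) of each member (rows) as deposited and under 4 other scalings of the columns (symbols), with dotted lines at 2-fold. Jun, Ier3, Fosl2, Fos and Egr3 stay past 2-fold on their side of 0 in both comparisons with Ctrl, Egr1 does so except under loess, and Fosl1, Junb and Jund lie near or across 0 under some scalings.

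The comparison of Hi with Med leaves the Ctrl column out. Jun was 0.80 lower in Hi (10.25 in Hi, 11.05 in Med), a level 1.74-fold higher in Med. Of all genes, 196 (0.983%) had a lower difference. Ier3 was lower by 0.35 (9.61 in Hi, 9.96 in Med), with 4.71% of genes lower, and Fosl1 by 0.21 (9.95 in Hi, 10.16 in Med), with 8.3% lower. Egr3 differed by -0.03. The members at least 2-fold higher in Med than in Ctrl, Jun, Ier3 and Fosl1, were thus all below Med in Hi, as were 55.1% of the 3655 genes so chosen. A further 21.7% of those genes were identical in Med and Hi, so genes below Med were the larger part of those that differed. Choosing genes by a high value in Med itself favours Hi below Med, so this share is partly set by the choice. The labels order Hi above Med in cluster level, and in Jun, Ier3 and Fosl1 the order of the columns was Ctrl, then Hi, then Med. The same choice bears on this order, and its link to cluster level was not tested.

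The other 6 members, Fos, Fosb, Fosl2, Junb, Jund and Egr1, held identical values in Hi and Med. This is near the share in the whole table, where 51.1% of genes were identical between these columns, and 69.2% of the receptor genes were. Of the genes 2-fold lower in Med than in Ctrl, 32.4% were identical in Med and Hi, and among the 4 members so placed Fos, Fosl2 and Egr1 were. A difference between Hi and Med in these 6 genes could not be seen from the deposited values, which does not show that their RNA was equal.

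Genes that act around the members were described from lists chosen with results of these data known. Their counts in Hi against Ctrl stand beside shares of 17.5% higher and 15.4% lower over all genes, and of 33.5% and 8.4% over genes past the filter on the mean level. The mean includes Med and Hi, so the filter can itself raise the share of higher genes, in the background as in the lists. Of 40 further immediate-early genes, 10 were higher by 2-fold or more in Hi than in Ctrl and 4 were lower (8 and 4 in Med), with a median difference of 0.00 in Hi. Their 25% higher lies between both background shares, and 33 of the 40 pass the filter. The highest were the growth regulator Myc (12.06 in Hi, 8.48 in Ctrl), the EGFR inhibitor Errfi1 (10.86 in Hi, 7.80 in Ctrl) and the NF-kB inhibitor Nfkbia (12.07 in Hi, 9.26 in Ctrl). The lowest were the orphan nuclear receptors Nr4a3 (5.15 in Hi, 7.72 in Ctrl) and Nr4a2 (7.65 in Hi, 9.08 in Ctrl), and Egr4 (7.28 in Hi, 8.42 in Ctrl), which like both Egr members was below Ctrl. Nr4a3 lay at the 99th percentile of the receptor genes in Ctrl (7.72) and below it in Hi (6.91). It is thus not shown to be above background, and the size of its difference is uncertain. Between Hi and Med, Plk2 (1.34) and the matrix protein gene Ccn2 (1.23) were 2-fold higher in Hi and 0 genes lower, with Gadd45a at -0.98. Plk2 and Ccn2 thus ran the other way from Jun, Ier3 and Fosl1.

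Of 20 bZIP partners of AP-1, 4 were 2-fold higher in Hi than in Ctrl and 4 were lower, shares of 20% each. Atf2, a partner of Jun (10.12 in Hi, 7.93 in Ctrl), Atf6 and Nfe2l2 were highest, and Mafa, Maf and the Jun partner Batf3 (7.06 in Hi, 8.45 in Ctrl) lowest. Upstream, 7 of 14 ERK cascade genes were 2-fold higher in Hi than in Ctrl and 0 were lower, and 6 of 15 JNK and p38 genes were higher and 0 lower. All 14 of these ERK genes and 14 of the 15 JNK and p38 genes pass the filter, and the JNK and p38 share of 40% is near the share of such genes. The Jun kinase gene Mapk8 (JNK1) was the lowest of the JNK and p38 genes, at 8.50 in Hi against 9.04 in Ctrl. Several listed kinase genes are not analysed here. Of 12 serum response and Egr cofactors, 4 were higher and 0 lower, about the share of genes past the filter, as all 12 are. They include the Egr corepressor Nab1 (9.36 in Hi, 6.60 in Ctrl), while its relative Nab2 was at 9.31 in Hi and 9.65 in Ctrl. The Nab1 level in Ctrl lay below the 99th percentile of the receptor genes there (7.72), so the size of its difference is uncertain. A list of 21 ERK feedback genes held inhibitors, the Ras regulators Rasa1 and Nf1, and the Etv genes, which encode transcription factors and not inhibitors. Of these, 7 were higher and 2 lower, from Dusp7 (10.65 in Hi, 7.85 in Ctrl) down to Spry2 (7.81 in Hi, 9.15 in Ctrl).

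Of 24 genes reported as AP-1 targets, 14 were 2-fold higher in Hi than in Ctrl and 0 were lower, and in Med 13 and 0, with median differences of 1.39 in Hi and 1.76 in Med. The 58.3% higher in Hi stands beside 17.5% of all genes and 33.5% of genes past the filter, which 19 of the 24 pass. The share past the filter can be raised by the filter itself, since Med and Hi enter the mean. Over the scalings tried the number higher was 10 to 14 in Hi and 10 to 13 in Med, and the number lower reached 2 and 3. Some of the higher genes had Ctrl levels below the 99th percentile of the receptor genes there (7.72). Cd44 (6.10), Plau (6.97), Mmp13 (7.17), Hmox1 (7.35), Ccl2 (7.48) and Plaur (7.59) did. The rest of the higher genes, among them Krt18 (7.97), Cxcl1 (9.01) and Mt2 (9.92), did not. For those below it, the size of the difference is uncertain. Many of these genes have other regulators, and their link to Jun or Fosl1 was not tested. In Hi against Med, as for Jun, the growth factor Hbegf (-0.87), the plasminogen activator Plau (-0.69) and the protease inhibitor Timp1 (-0.68) were lower in Hi. The collagenase Mmp13 (1.24) and the chemokine Cxcl1 (1.06) were 2-fold higher there.

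**Figure D5:**
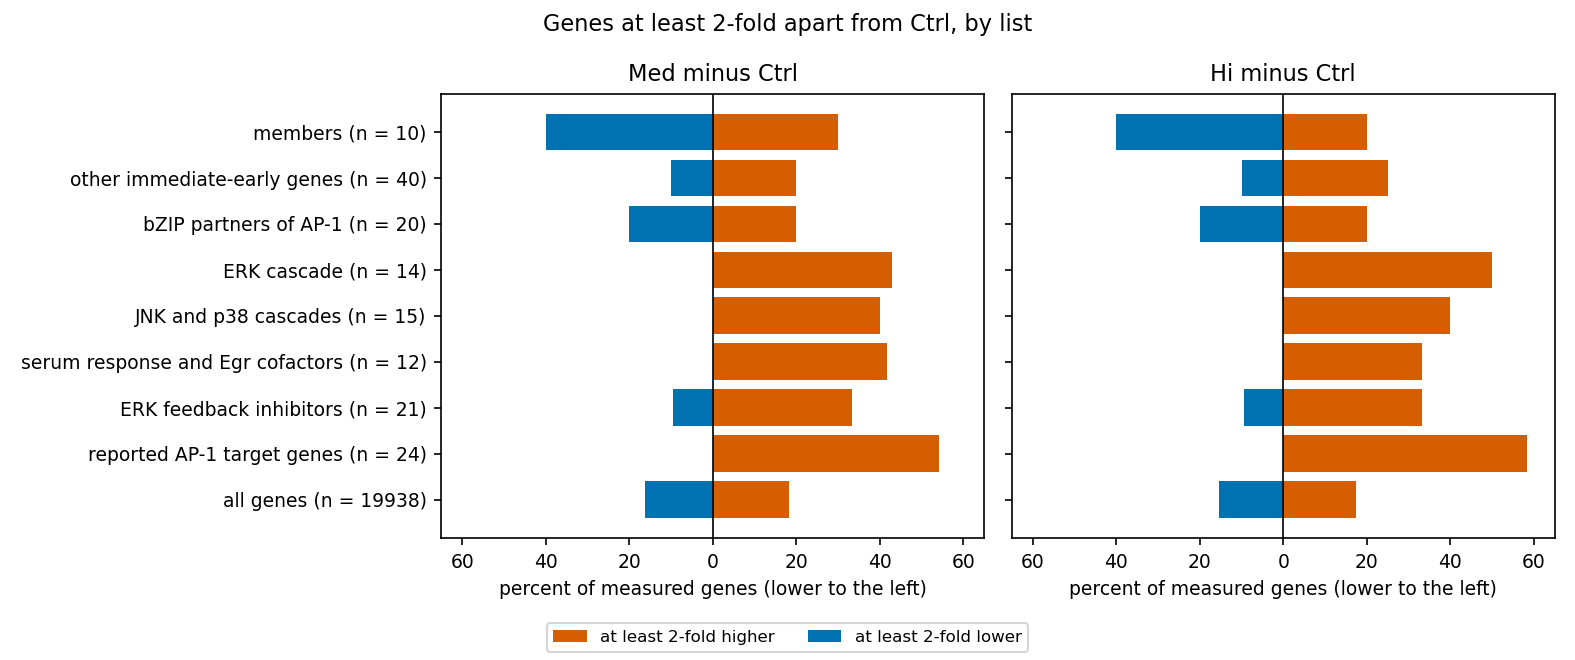
Percent of measured genes (x axis, higher to the right and lower to the left of 0) at least 2-fold apart from Ctrl in Med (left panel) and Hi (right panel), for the members, 7 lists of related genes and all genes (rows, with the number measured). Of the members, 4 of 10 were 2-fold lower in each panel. Among the lists drawn, the reported AP-1 targets have the highest share of higher genes in the values as deposited.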

How the data were processed

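Total RNA (100 ng per sample) of CT26 cells was amplified by random priming, labelled with biotin and read on Affymetrix arrays, per the labels' protocols. The deposited values were taken as log2 from their range, with no base stated. The submitters' processing notes name Affymetrix Expression Console and GCRMA, with no version or order. Probe summary and any pooling of the 3 subclones came before deposit.

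Of 35556 probe sets, 21789 had 1 gene in GEO's platform annotation, 1621 several and 12146 none. Symbols were updated by gene number (99.6% matched) to RefSeq's table of GRCm38.p6, used for names. Probe sets of a gene were averaged, giving 19938 genes. Of the members, 9 passed a filter on the mean level (7.13, the median of all genes), which was not applied to the main counts. Per comparison, differences of log2 values of at least 1 (2-fold) were counted without a test, since each group has 1 column, and the number of arrays limits the precision. Columns without a sample numbered 0. The counting was tested on simulated data. Scalings used limma 3.58.1 in R 4.3.3, and other steps Python 3.11.15 with pandas 2.3.3.

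Members and lists were chosen with earlier results of these data known. Every member is named. Of each list, genes were drawn from up to 3 highest and 3 lowest in Hi minus Ctrl and in Hi minus Med, or up to 2 where none was 2-fold apart. Batf3, Mapk8, Nab2, Spry2 and Dusp7 fall under this rule. Cd44, Hmox1 and Plaur do not, and are named only for their Ctrl levels. Marker lists check the cell line only.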

Additional observations from a re-analysis of the deposited data

How the results depend on the processing

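Deposited values were set beside 5 other settings (centring on all probe sets, quantile, cyclic loess, the highest probe set, an expression filter) and 1 more chosen after seeing the data (centring on genes past the filter). Every count of members stayed within 1.5 times its value as deposited. The median difference of the members, -0.27 in Med and Hi against Ctrl, was 0.024 and 0.014 with centred columns, -0.76 and -0.74 with quantile, -0.46 and -0.45 with loess, 0 in both over the 9 members past the filter (by construction, without Egr1), and -0.87 and -0.81 with centring on genes past the filter. The cause of the other shifts was not tested.

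Centring on all probe sets raised every difference by 0.30 in Med and 0.29 in Hi, and centring on genes past the filter shifted them by -0.60 and -0.54. Higher genes were 52.9% of those 2-fold apart in Med as deposited, 76.5% with centring on all probe sets, 21.7% with centring on genes past the filter, 66.1% with loess and 80.0% past the filter. Quantile normalization gave 47.3%. In Hi against Med, 102 genes were 2-fold lower as deposited and 61 with quantile normalization. Of 177 member differences recomputed, 8 changed their side of 2-fold, all of Fosl1, Egr1 or Fosb, and none that was past 2-fold changed sign. The 177 include values that could not change. Each member has 1 probe set, so taking the highest probe set altered none, and the expression filter only dropped Egr1. Over the scalings, Hi against Ctrl had 2 to 11 of the further immediate-early genes 2-fold lower (4 as deposited). The numbers higher were 2 to 7 JNK and p38 genes (6), 2 to 7 cofactors (4) and 3 to 9 ERK feedback genes (7). No paired analysis was possible because each group has 1 column. Leaving out a replicate was not possible for the same reason.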
